A study of Homo sapiens with 4 samples.

Results

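The peaks described here are those on human chromosome 8 in the m7G peak lists of 2 leukaemia cell lines, and in particular those around MYC in band 8q24. They were chosen by chromosome alone, without regard to score or gene. The HL60 list held 313 of its 8070 peaks on chromosome 8, which is 3.88%. The HL60/MX2 list held 321 of 8122, which is 3.95%. Together 634 of 16192 peaks lay on this chromosome. The 8q24 window was the 5 Mb from 126000001 to 131000000 of the hg19 build, which contain MYC. HL60 had 3 peaks there, and HL60/MX2 had 4.

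The study mapped N7-methylguanosine (m7G) on mRNA by MeRIP-seq, in which an m7G antibody enriches fragments of decapped RNA for sequencing, beside an input library. HL60 is a human promyelocytic leukaemia line, labelled wild type, and HL60/MX2 is its mitoxantrone-resistant derivative, labelled as drug-resistant. No drug treatment of either culture is given in the labels. The series holds 4 libraries, an immunoprecipitate and an input for each line, and 1 peak list per line; the inputs were not analysed here. With 1 library per line, no difference between the lines could be tested, and every interval below is a 95% interval that covers counting error only.

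m7G is best known as the cap at the start of mRNA, and it also occurs inside tRNA, rRNA and mRNA. MYC, a transcription factor that drives growth and ribosome production, lies in a stretch of 8q24 that is poor in coding genes and rich in enhancers. The region around MYC is known to be amplified in HL-60 cells. Copy number was not measured in this study, and neither its part in any value below nor that of transcript level was tested.

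Each row of the lists gives a peak's position, strand and score, and a name that ends in a running number. The running number rose along each chromosome without repeats, and most of its values were missing between one listed peak and the next. It is read here as a count of regions that were called before those over exons were kept, although the lists do not say so. Between the first and the last listed peak of chromosome 8 the number rose from 817809 to 868882 in HL60 and from 678027 to 719766 in HL60/MX2. Those rises of 51073 and 41739 gave 349.8 and 286 numbers per Mb. Listed peaks made up 0.613% of the chromosome's numbers in HL60 and 0.769% in HL60/MX2. Among the 22 autosomes, chromosome 8 ranked 2nd in numbers per Mb in both lists. The other autosomes lay between 249.7 and 432 in HL60 (median 317) and between 230.4 and 349 in HL60/MX2 (median 269).

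The running number rose faster in 8q24 than in the rest of chromosome 8 in both lines. In HL60 it rose by 2230 over the 5 Mb, a density of 446 per Mb (428 to 465), against 346 (343 to 350) in the rest of the chromosome. In HL60/MX2 it rose by 2139, a density of 428 per Mb (409.9 to 446), against 281 (279 to 284). The ratio of 8q24 to the rest was thus 1.29 (1.23 to 1.34) in HL60 and 1.52 (1.46 to 1.59) in HL60/MX2. These intervals treat the numbers as independent counts. The spread between windows of the same chromosome is the wider yardstick.

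Chromosome 8 was therefore divided into 5 Mb windows. Kept were the 29 with at least 3 Mb between the chromosome's first and last listed peaks in both lists. 8q24 had the highest density of the 29 in both lists. In HL60 the other 28 windows lay between 211 and 386 per Mb (median 354). In HL60/MX2 they lay between 186 and 319 (median 288.5). Leaving out the windows at the centromere, 8q24 stood 2.80 SDs above the median of the other 26 windows in HL60 and 6.47 SDs above it in HL60/MX2. For HL60, the window before 8q24 gave 381 per Mb and the window after it 383. For HL60/MX2 they gave 319 and 308. Both neighbours were thus among the denser windows and below 8q24. The windows at the centromere, which contain unsequenced bases, gave 232 and 221 per Mb in HL60 and 186 and 207 in HL60/MX2.

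**Figure D1:**
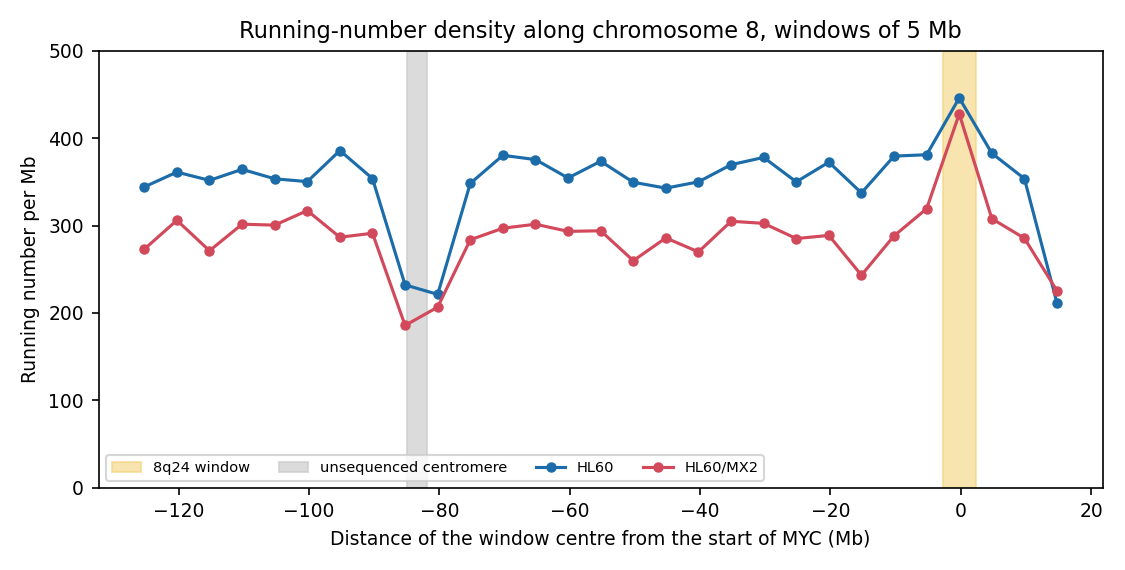
Running-number density (numbers per Mb, y axis) in each 5 Mb window of chromosome 8, against the distance of its centre from the start of MYC (Mb, x axis), one trace per cell line. The shaded 8q24 window is the highest in both lines, at 446 per Mb in HL60 and 428 in HL60/MX2. The dips lie at the centromere and at the gene-rich end of the long arm.

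The plot of density along the chromosome shows that the lines drew together in 8q24. Outside it HL60 usually had the higher density. The ratio of HL60 to HL60/MX2 was 1.04 in 8q24 and lay between 0.937 and 1.39 (median 1.24) in the other windows of chromosome 8. Only the last window, at the end of the long arm, had a lower ratio. Among all 550 autosomal windows the ratio of 8q24 ranked 91st from the lowest. Set as a ratio of ratios, the excess of 8q24 over the rest in HL60 was 0.847 times that in HL60/MX2 (0.797 to 0.900). Counted only between listed peaks inside the window, it was 0.913 (0.783 to 1.06), an interval that includes 1. That count ran from SQLE to NSMCE2 in HL60 and from NSMCE2 to CYRIB in HL60/MX2. It thus compares nearly separate stretches and cannot check the value for the whole window.

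Against the windows of all autosomes, 8q24 was near the top without standing alone. The median window held 348 numbers per Mb in HL60 and 283.7 in HL60/MX2, so 8q24 was 1.28 and 1.51 times the median. Of the 550 windows, 13 in HL60 (2.36%) and 16 in HL60/MX2 (2.91%) reached 1.25 times the median. Chromosome 8 had 1 such window of 29 in each list, and it was 8q24 both times. Windows past this level in both lists numbered 2 (0.364%), 8q24 and the window at 1 to 6 Mb of chromosome 18, with ratios of 1.34 and 1.59. In HL60, 10 windows had a higher density than 8q24, 9 of them on chromosome 18 and 1 on chromosome 10. In HL60/MX2 both windows above 8q24 were on chromosome 18.

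**Figure D2:**
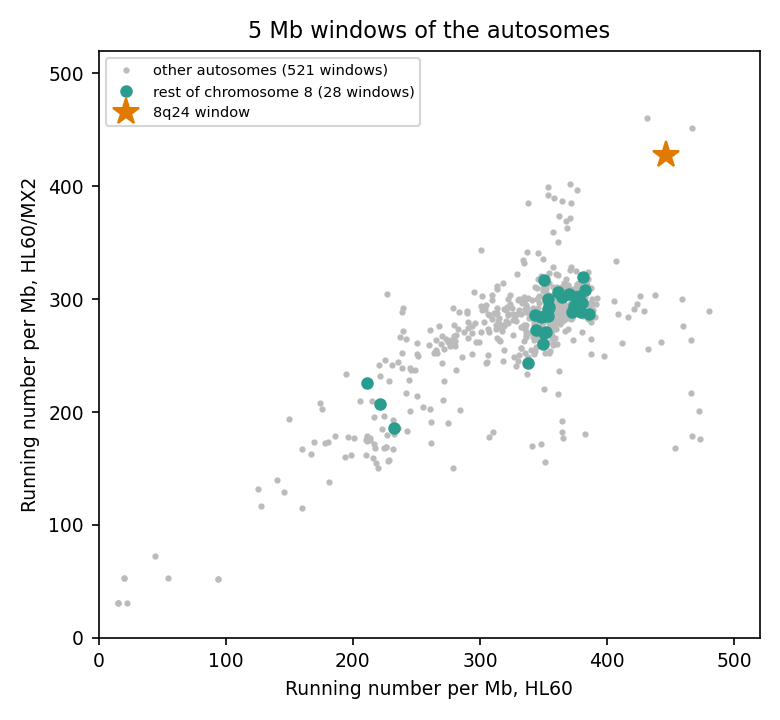
Running-number density (numbers per Mb) of each 5 Mb autosomal window in HL60 (x axis) against HL60/MX2 (y axis), with 8q24 (star) and the other 28 windows of chromosome 8 marked. Most chromosome 8 windows lie within the main cloud, and 8q24 lies apart from it, high in both lines, near windows of chromosome 18.

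The scatter of windows shows how few windows were dense in both lists. By base composition, 8q24 had 40.6% GC, and the 15 windows of chromosome 8 within 2 percentage points of it and with under 10% unsequenced bases lay between 344 and 386 per Mb in HL60 and between 271 and 319 in HL60/MX2. A further window of like GC, beside the centromere at 46 to 51 Mb, has 16.9% unsequenced bases and gave 221 and 207. The part of base composition in the density was not tested.

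The same rise can be followed between neighbouring listed peaks, which needs no window edges. In HL60, no listed peak lay between the one at the end of NSMCE2 (from 126379283) and the next in ASAP1 (from 131173031). That gap of 4.79 Mb skipped 2122 numbers, or 443 per Mb. It was the densest of the 86 gaps of at least 0.5 Mb on chromosome 8 in HL60, where the others had a median of 365 and reached 421. In HL60/MX2, the gap from NSMCE2 (126379280) to GSDMC (130762677) was 4.38 Mb long and skipped 1945 numbers, or 444 per Mb. It was the densest of 75, where the others had a median of 291 and reached 361. MYC lay inside both gaps, with no listed peak on either side of it for over 1 Mb.

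Outside these gaps the density changed over short distances. In HL60 the 0.342 Mb between the peaks of WASHC5 and NSMCE2 gave 502 per Mb, and the stretches before it gave 328 (SQLE to WASHC5) and 363 (MTSS1 to SQLE). After ASAP1 the density was 383 up to KCNQ3. In HL60/MX2 it was 337 from FAM91A1 to NSMCE2, 252 from GSDMC to CYRIB, 302 from CYRIB to ASAP1 and 339 from ASAP1 to ADCY8. As far as the spacing of the peaks resolves it, the dense stretch began after WASHC5 in HL60. In HL60/MX2 the dense gap began at NSMCE2, but where within that gap the density rose is not resolved. The dense stretch had ended by ASAP1 in HL60 and by GSDMC in HL60/MX2. In HL60/MX2 the gap before NSMCE2 was 1.58 Mb long, so an earlier start within it would not be seen. The median gap on the chromosome was 189 kb in HL60 and 145 kb in HL60/MX2.

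**Figure D3:**
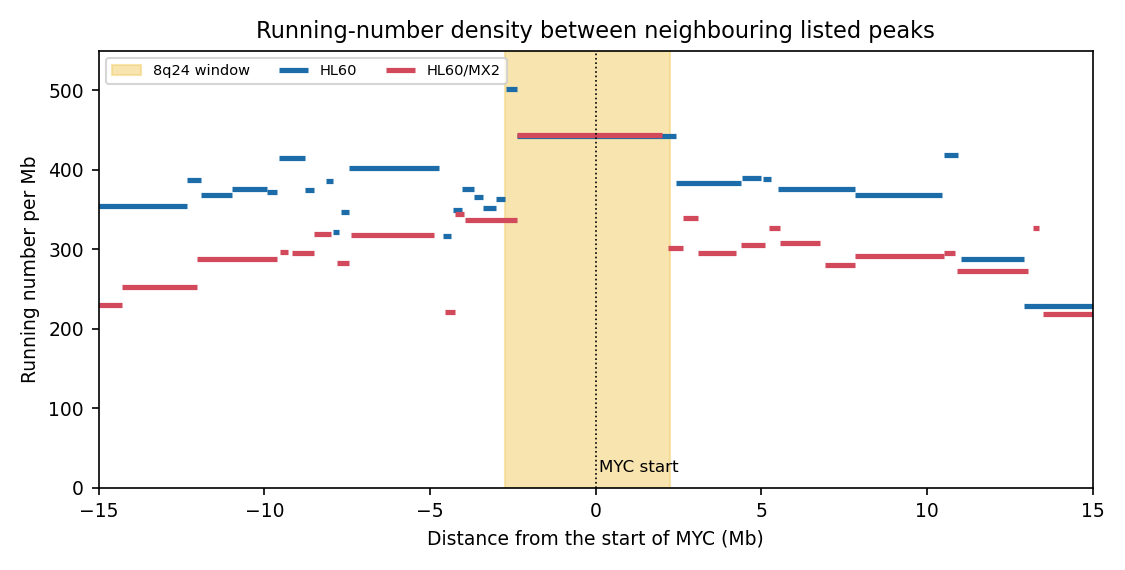
Running-number density (numbers per Mb, y axis) between neighbouring listed peaks at least 0.2 Mb apart, against distance from the start of MYC (Mb, x axis, up to 15 on each side). Each horizontal bar is 1 gap, and the gap that holds MYC lies at 443 per Mb in HL60 and 444 in HL60/MX2, above all others shown but the HL60 gap from WASHC5 to NSMCE2 at 502.

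The gap plot shows about the same density in both lines for the gap that holds MYC, over a lower level in HL60/MX2 than in HL60. Each bar is 1 average, so the course of the density within the gap is not resolved. Listed peaks were few in 8q24. They made up 0.135% of the numbers of 8q24 in HL60 and 0.187% in HL60/MX2, against 0.635% and 0.801% in the rest of the chromosome. Protein-coding exons were likewise sparse there, with 44.2 kb, or 0.884% of the length, against 2.72% in the rest of chromosome 8.

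Per length of protein-coding exon, 8q24 did not differ from the rest beyond counting error. It held 67.9 peaks per Mb of merged protein-coding exon in HL60 (14.0 to 198) and 90.5 in HL60/MX2 (24.7 to 232). The rest of chromosome 8 held 80.7 (71.9 to 90.1) and 82.5 (73.6 to 92.1). The ratios were 0.842 (0.173 to 2.48) and 1.10 (0.297 to 2.84). This depended on the exons counted. Per length of exon of genes of every biotype, the ratios were 0.233 (0.0478 to 0.688) in HL60 and 0.304 (0.0823 to 0.786) in HL60/MX2, both below 1. Most listed peaks of chromosome 8 lay over protein-coding exons, 302 of 313 in HL60 and 313 of 321 in HL60/MX2. Noncoding exons therefore add length where few peaks could be listed, so these lower ratios do not show a depletion. At the density of the rest of the chromosome, the exons of 8q24 would hold 3.56 peaks in HL60 and 3.64 in HL60/MX2, where 3 and 4 were listed. So few peaks leave intervals that reach from well below the rest to well above it.

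MYC (chromosome 8, 128747680 to 128755197 on the plus strand) had no listed peak in either line. Its merged exons measure 6109 bp and at the density of the rest of the chromosome would hold 0.493 peaks in HL60 and 0.504 in HL60/MX2. An absence of peaks over a gene of this length is therefore not a difference that such a list can show. Of the 9 protein-coding genes of 8q24, 3 had a peak in each list, 1 had one in both, and 4 had none in either. Over all protein-coding genes 26.4% had a peak in the HL60 list, 28.5% in the HL60/MX2 list and 12.0% in both, so 3 of 9 is near the background. Besides MYC, the genes without a peak were TRIB1, a pseudokinase gene at 126442600 to 126450645, LRATD2, and POU5F1B, a retrocopy of the pluripotency gene POU5F1 whose reads may be hard to tell from those of its parent.

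The genes of 8q24 with a peak lay at the ends of the window. NSMCE2, which encodes a SUMO ligase of the SMC5/6 DNA repair complex, had the only peak present in both lists. It covered the end of the 3′UTR, at 126379283 to 126379367 with a score of 301.17 in HL60 and at 126379280 to 126379367 with a score of 57.61 in HL60/MX2, an overlap of 85 bp. SQLE, the squalene epoxidase of cholesterol synthesis, had a peak in its coding sequence in HL60 only, at 126015544 to 126015670 with a score of 477.83. WASHC5, a subunit of the WASH complex that builds actin on endosomes, had a peak of score 167.94 at its stop codon in HL60 (126036882 to 126036915).

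On the other side of MYC, peaks were listed in HL60/MX2 and not in HL60. GSDMC, of the pore-forming gasdermins, had 2 peaks in its coding sequence, at 130762677 to 130762813 with a score of 559.43 and at 130777874 to 130777931 with a score of 103.79. CYRIB, which encodes an inhibitor of Rac1-driven actin branching, had a peak of score 148.49 that covered the exon of its start codon (130916745 to 130916831). HL60 thus had its 3 peaks before MYC, and HL60/MX2 had 1 before and 3 after it. At counts this low the lines cannot be told apart.

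Along the whole chromosome, peaks followed exons at a density similar to that of other autosomes. Chromosome 8 has 3.89 Mb of protein-coding exon, and held 80.5 peaks per exon Mb in HL60 (71.8 to 89.9) and 82.6 in HL60/MX2 (73.8 to 92.1). It ranked 8th and 6th of the 22 autosomes. The others lay between 44.5 and 126.9 in HL60 (median 71.7) and between 61.0 and 90.3 in HL60/MX2 (median 75.4). Against all other autosomes together the ratio was 1.08 (0.959 to 1.21) in HL60 and 1.10 (0.979 to 1.23) in HL60/MX2, and both intervals include 1.

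The arms of the chromosome did not differ beyond counting error. In HL60 117 peaks lay on the short arm, and in HL60/MX2 129 did, which is 83.0 (68.6 to 99.4) and 91.5 (76.4 to 108.7) per exon Mb. The long arm held 196 and 192, which is 79.1 and 77.5 per exon Mb. The running number rose by 352 per Mb on the short arm and 354 on the long arm in HL60, and by 289.6 and 289.9 in HL60/MX2.

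Peaks per exon varied widely from window to window. The gene-rich end of the long arm, from 141000001 to 146000000, had the most exon of all windows, 431 kb over 102 genes. For that exon length it had few peaks. HL60 had 9 peaks there, or 20.9 per exon Mb, and HL60/MX2 had 20, or 46.5. Its running-number density was also low, at 211 and 225 per Mb, and its GC content was high, at 52.9%. Genes with a peak numbered 4 of 102 in HL60, or 3.92% (1.08 to 9.74), and 15 in HL60/MX2, or 14.7% (8.47 to 23.1). Over all protein-coding genes the shares were 26.4% in HL60 and 28.5% in HL60/MX2.

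Other windows were peak-rich for their exon length. At 31 to 36 Mb, 8 genes with 52.9 kb of exon carried 12 peaks in HL60, or 227 per exon Mb, and 6 in HL60/MX2, or 113. At 111 to 116 Mb the only gene was CSMD3, with 20.4 kb of exon, and it carried 4 HL60 peaks, or 196 per exon Mb, and 6 HL60/MX2 peaks, or 294. Windows with 100 or more peaks per exon Mb numbered 14 in HL60 and 10 in HL60/MX2.

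Between the lines, the larger differences in a window went both ways. Besides the last window, HL60/MX2 had more peaks at 21 to 26 Mb (12 in HL60 and 22 in HL60/MX2, over 9 and 17 genes) and at 41 to 46 Mb (8 and 17). HL60 had more at 71 to 76 Mb (17 and 9) and at 11 to 16 Mb (14 and 7). HL60 had more peaks in 12 windows, HL60/MX2 in 14, and the counts were equal in 3. The counting intervals of the lines overlapped in all 29 windows.

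**Figure D4:**
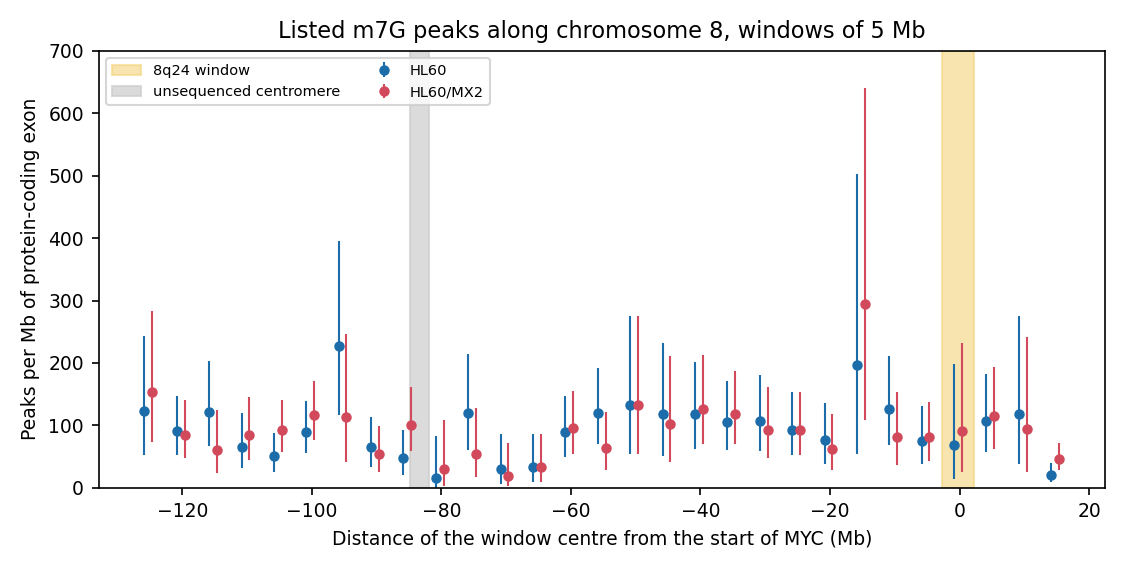
Listed peaks per Mb of protein-coding exon (y axis) in each 5 Mb window of chromosome 8, against the distance of its centre from the start of MYC (Mb, x axis), in HL60 and HL60/MX2, with 95% counting intervals as bars. Intervals of the lines overlap in every window, and the last window, rich in genes, is low in both lines at 20.9 and 46.5.

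The plot of peaks per exon shows no rise at 8q24, where HL60 had 3 peaks and HL60/MX2 had 4. Such counts could not show a rise as large as that of the running number. Per exon, the ratios of 8q24 to the rest had intervals of 0.173 to 2.48 in HL60 and 0.297 to 2.84 in HL60/MX2. These include the running-number ratios of 1.29 and 1.52. The widest bars of the plot belong to windows with little exon, 8q24 among them.

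By gene, 211 of the 709 protein-coding genes of chromosome 8 had a peak in HL60, or 29.8% (26.4 to 33.3), where 26.4% of all protein-coding genes did. In HL60/MX2 223 had one, or 31.5% (28.0 to 35.0), where 28.5% of all genes did. Both lists marked 102 genes, or 14.4% of those on the chromosome, where the share over all genes was 12.0%. The overlap was 48.3% of the HL60 genes and 45.7% of the HL60/MX2 genes. Peaks were in HL60 alone for 109 genes, in HL60/MX2 alone for 121, and in neither for 377. Against the other autosomes, the share of genes with a peak was 1.12 times as high (0.993 to 1.25) in HL60. In HL60/MX2 it was 1.09 times as high (0.975 to 1.22). Over all genes chromosome 8 thus did not differ beyond counting error. Among genes with at least 1000 bp of exon, the ratio was 1.14 (1.01 to 1.27) in HL60, an interval above 1. For HL60/MX2 that ratio was 1.10 (0.982 to 1.23). Most of these genes carried a single peak, 143 in HL60 and 158 in HL60/MX2, and 7 and 5 carried more than 3.

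The genes with the most peaks were long ones. The leading 10 had merged exons of 8222 to 31717 bp, where the median gene of the chromosome has 4443 bp, and carried 36 peaks in each list. CSMD3 and CSMD1, which encode very large membrane proteins with CUB and sushi domains, were among the first. CSMD3 had 4 HL60 peaks and 6 HL60/MX2 peaks, and CSMD1 had 4 and 4. All 10 CSMD3 peaks lay in coding sequence and none overlapped between the lists. Such overlap was rare on the whole chromosome, at 7.67% of HL60 peaks and 7.48% of HL60/MX2 peaks. Their scores ran from 162.7 to 483.68 in HL60 and from 129.92 to 587.97 in HL60/MX2. The CSMD1 peaks did not overlap between the lists either, with scores of 140.13 to 474.51 in HL60 and 101.07 to 522.01 in HL60/MX2.

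**Figure D5:**
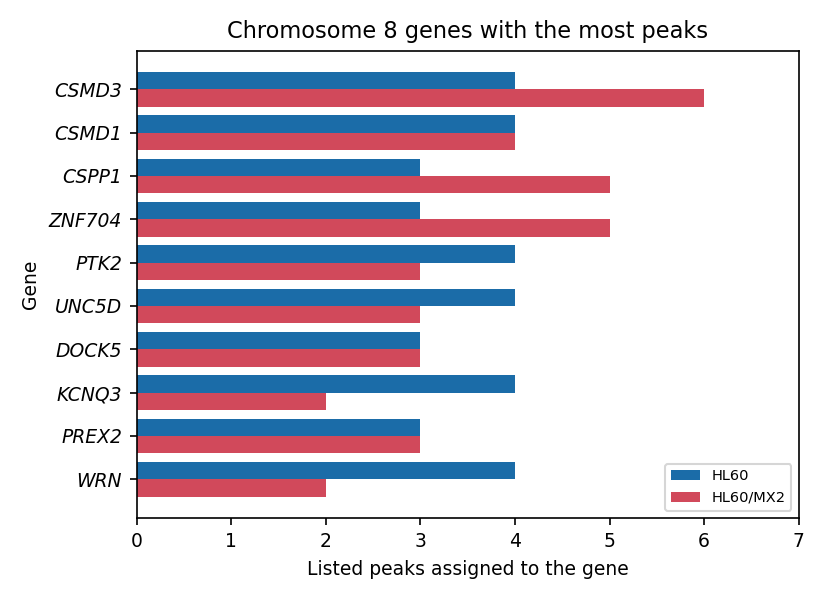
Number of listed peaks (x axis) in HL60 and HL60/MX2 for the 10 chromosome 8 genes with the most peaks over both lists (y axis). CSMD3 has 4 and 6, and the other genes have 2 to 5 peaks in each line.

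As the bars by gene show, each of these 10 genes had at least 2 peaks in both lists. In 3 of the 10, namely UNC5D, WRN and ZNF704, a peak overlapped between the lines. Of all chromosome 8 peaks, 7.67% in HL60 and 7.48% in HL60/MX2 overlapped a peak of the other list. WRN, which encodes the RecQ helicase lost in Werner syndrome, had 4 HL60 peaks and 2 HL60/MX2 peaks, all in coding sequence. The shared one covered a whole exon at 31014884 to 31015046 and scored 54.54 in HL60 and 1356.62 in HL60/MX2. ZNF704, a zinc finger gene, had 3 and 5 peaks, with shared pairs in its 3′UTR that overlapped by 204 and 112 bp. UNC5D, a netrin receptor gene, had 4 and 3, with 236 bp shared.

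The other genes of this group had peaks at different places in each line, as most peaks of the chromosome did. CSPP1, which encodes a protein of centrosomes and spindle poles, had 3 HL60 peaks and 5 HL60/MX2 peaks, with top scores of 1932.22 and 1131.69 at separate sites of its coding sequence. PREX2, an exchange factor for Rac, had 3 and 3, with scores of 1309.68, 800.39 and 663.76 in HL60 and of 568.9, 119.65 and 79.91 in HL60/MX2. PTK2, the focal adhesion kinase gene, had 4 and 3 peaks. In HL60 its peaks lay between 141668481 and 141680363, and in HL60/MX2 between 141779674 and 141931318, so that the lists marked separate stretches of the gene. KCNQ3, a potassium channel gene, had 4 and 2, of which 3 and 2 were in the 3′UTR. DOCK5, another activator of Rac, had 3 and 3.

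The highest scores of the chromosome fell partly outside coding genes. In HL60 the top score of 3100 was shared by peaks at 86748961 to 86749604 on the plus strand, over the processed pseudogene REXO1L11P, and at 86765942 to 86766241 on the minus strand, over no annotated gene. In HL60/MX2 the top peak, 1396 bp long with a score of 2807.18, lay nearby at 86786038 to 86787433. These peaks lie 173235 to 210312 bp from REXO1L1, their nearest coding gene, in a block of near-identical repeat copies, so the copy their reads came from is uncertain. Next in HL60 came CSPP1, PREX2 and NRG1, the neuregulin gene, at 1283.15. In HL60/MX2 they were NDRG1 at 1958.92 in the 5′UTR (134308980 to 134309257), ADAM7 at 1598.97 over the start codon, WRN, and FAM83A at 1309.33. NDRG1 encodes a stress-responsive protein. No peak of NRG1 was listed in HL60/MX2 and none of NDRG1 in HL60.

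Among 25 leukaemia and cancer genes of chromosome 8, 10 (40.0%) were marked in HL60, 8 (32.0%) in HL60/MX2 and 5 in both, with 20 and 11 peaks. Over all protein-coding genes these shares were 26.4%, 28.5% and 12.0%. The median exon length of this list, 10736 bp, was above that of the chromosome. RUNX1T1, the partner of RUNX1 in the fusion of core-binding factor leukaemia, had 1 peak in HL60 with a score of 384.35 and 2 in HL60/MX2 with scores of 1079.22 and 512.76. EXT1, a gene of heparan sulfate synthesis, had 3 in HL60 and 1 in HL60/MX2, with a shared peak at its 5′ end, with scores of 286.43 and 167.7.

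Besides PREX2, most other members named here with a peak were marked in 1 line alone. KAT6A, a histone acetyltransferase gene of leukaemia fusions, and HOOK3 had 1 peak each in HL60, and NCOA2, NRG1 and TPD52 had 2 each, with none in HL60/MX2. PCM1, TCEA1 and NDRG1 had 1 each in HL60/MX2 and none in HL60. DLC1 had 2 and 1. No peak was listed in either line for MYC, TRIB1, FGFR1, NSD3, PLAG1, HEY1, CEBPD, LYN, IKBKB, TNFRSF10A, TNFRSF10B or MTDH.

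Of 14 genome maintenance genes, 5 (35.7%) were marked in HL60 and 8 (57.1%) in HL60/MX2, and all 5 of the former were among the latter. The shares over all genes were 26.4% and 28.5%, and 12.0% for both lists. The median exon length of these 14 genes, 7489.5 bp, was above the 4443 bp of the chromosome. The genes marked in both were WRN, NSMCE2, NBN, RAD54B and ESCO2. NBN, a subunit of the MRN double-strand break sensor, had 1 peak in each list, with scores of 53.15 and 389.33. RAD54B, a recombination motor, had 3 and 2, including a shared one at its start codon with scores of 120.86 and 104.28. ESCO2, a cohesin acetyltransferase, had 2 and 1. POLB, the polymerase of base excision repair, and MCPH1 had 2 each in HL60/MX2, SPIDR had 1, and none of these had a peak in HL60. PRKDC, RAD21, RECQL4, PINX1, MCM4 and TONSL had none in either. In all, peaks numbered 11 in HL60 and 12 in HL60/MX2.

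The defensins of 8p23, short genes for antimicrobial peptides of neutrophils and epithelia, were marked in different members in each line. Of 21 members with a median of 389 bp of exon, 4 (19.0%) were marked in HL60 and 3 (14.3%) in HL60/MX2, none in both, where 26.4%, 28.5% and 12.0% of all genes were. In HL60 these were DEFA4, a neutrophil defensin, with a score of 90.44, DEFB105A with 51.4, SPAG11A with 152.03, and SPAG11B with 832.06 and 162.7. The stronger SPAG11B peak lay at 7308133 to 7308422. In HL60/MX2 they were DEFB103B at 979.41, and DEFB4A and DEFB4B at 90.4 and 100.41. Many of these genes exist as near-identical copies, so the copy to which a peak belongs is uncertain.

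Of 9 translation genes of the chromosome, 1 was marked in HL60 (EIF3H, a subunit of initiation factor 3, at 158.67) and none in HL60/MX2, where the shares over all genes were 26.4% and 28.5%. In the network of MYC and its partner MAX over all chromosomes, 1 of 13 genes was marked in HL60 (7.69%) and 3 were in HL60/MX2 (23.1%), against the same shares over all genes. MXI1, a MAX partner that opposes MYC, had 1 peak in each list, with scores of 70.24 and 1192.78 at separate sites. MYCN and MGA had 1 each in HL60/MX2, at 74.91 and 58.39, and MYC, MAX and the rest had none.

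A peak is no measure of expression, so cell identity could not be checked from the lists. Of 8 promyelocytic markers, 1 was marked in HL60 (CTSG, at 728.97) and 1 in HL60/MX2 (CD33, at 83.7). Of 4 markers of other lineages, 3 were marked in HL60 (CD3E, HBB and EPCAM) and none in HL60/MX2. Over all genes 26.4% and 28.5% were marked.

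The peaks themselves were short. Their median length on chromosome 8 was 135 bp in HL60 and 122 bp in HL60/MX2, against 128.5 and 133 bp on other autosomes, and 58 and 66 of them covered exactly 1 exon. The median score was 204 (range 51.15 to 3100) in HL60 and 265 (range 50.03 to 2807.18) in HL60/MX2. The scale of the score is not stated in the lists, so scores are compared only as written. Mean GC content was 43.9% (SD 9.96) in HL60 and 47.3% (SD 11.8) in HL60/MX2, against 46.1% and 49.6% on other autosomes. Of the HL60 peaks, 146 were on the plus and 167 on the minus strand. Of the HL60/MX2 peaks, 172 and 149 were.

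By place on the mRNA, coding sequence came first. Of 252 peaks in HL60 and 264 in HL60/MX2 that could be placed on the longest coding transcript of their gene, 143 (56.7%, 50.4 to 62.9) and 165 (62.5%, 56.4 to 68.4) were in coding sequence. The other autosomes gave 64.6% (63.4 to 65.8) in HL60 and 59.9% (58.7 to 61.2) in HL60/MX2. The intervals did not overlap in HL60, where the chromosome 8 share was lower, and did overlap in HL60/MX2. The 3′UTR held 57 peaks (22.6%) and 49 (18.6%), and the 100 nt on each side of the stop codon 15 (5.95%) and 7 (2.65%).

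The 5′ end, which is the 5′UTR plus 100 nt on each side of the start codon, took 37 HL60 peaks, or 14.7% (10.6 to 19.7), and 43 HL60/MX2 peaks, or 16.3% (12.0 to 21.3). On the other autosomes these shares were 10.2% (9.48 to 11.0) and 17.7% (16.7 to 18.7). The intervals of chromosome 8 overlapped those of the other autosomes in both lists. When every isoform was considered, a peak was placed at a start codon, stop codon or 5′UTR of any isoform before 3′UTR or coding sequence. This order favours the 5′ end. Under it the shares on chromosome 8 rose to 30.4% and 30.2%, which are not compared with other autosomes here.

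Few peaks of chromosome 8 were at the same place in both lines. Overlaps of at least 1 bp on the same strand numbered 24, which is 7.67% (4.97 to 11.2) of the HL60 peaks and 7.48% (4.85 to 10.9) of the HL60/MX2 peaks. Other autosomes shared 6.09% (5.56 to 6.66) and 6.06% (5.53 to 6.62), within those intervals. Of the 24, 10 were in coding sequence and 6 in the 3′UTR, and the median overlap was 116.5 bp. The longest were in FZD3, a Wnt receptor gene, with 241 bp of 3′UTR (28429427 to 28429667, scores of 162.7 and 460.87), UNC5D with 236 bp, ELOC, an elongin subunit gene, with 226 bp, KCNS2, a potassium channel gene, with 218 bp, and ZNF704 with 204 bp. In 4 pairs, named after their values were seen, the ends were identical: SLCO5A1, WRN, GRHL2 and FAM135B. The shared site of NSMCE2 was the only one in 8q24.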

How the data were processed

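Data were m7G MeRIP-seq peak lists of HL60 and HL60/MX2, 1 immunoprecipitate library each. Per the labels, the authors trimmed reads with cutadapt 1.9.3, and the processing notes also name HISAT2 2.0.4, STAR and hg19. Peaks were called with MACS, whose version and settings are not given in the sources used here. Read depth is unknown. The deposited score column was used as written, its scale being unstated, and the running number in the peak name was read as a count of called regions. Both lists keep mostly peaks over exons.

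Peaks were given to 1 of 20163 protein-coding genes of GENCODE 44 (lifted to GRCh37) by the largest exon overlap on their strand. Running numbers at window edges were interpolated between flanking listed peaks. Windows of 5 Mb were kept if at least 3 Mb lay between the first and last listed peaks of their chromosome. Ratios and shares have exact Poisson, conditional or Clopper-Pearson 95% intervals (Python 3.11.15, scipy 1.17.1). No test between lines was made. The scripts were tested on simulated data. Named genes were all of the 8q24 window, the 10 with most peaks, those of the 5 highest scores per list and the 5 longest overlaps, SPAG11B and list members with a peak, of which 1 is not reported here by name. Members and lists were chosen with earlier results of these data known. Alternatives covered the window, its edges and reference, exon set, score and length limits, isoform and overlap.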

Additional observations from a re-analysis of the deposited data

How the results depend on the processing

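Of 57 values recomputed under alternatives, 47 stayed within the interval of the reported value and 10 did not. Ratios whose interval includes 1 changed sides of it. Chromosome 8 over the other autosomes went to 0.970 in HL60 and 0.988 in HL60/MX2 with exons of every biotype, and 8q24 over the rest in HL60/MX2 went to 0.534 with the higher-scoring peaks and 0.649 with the wider window. In HL60 it went to 1.08 with the higher-scoring peaks. The share of genes with a peak, over that on other autosomes, went to 1.14 (1.01 to 1.27) in HL60 with genes of at least 1000 bp of exon. That interval lies above 1, unlike the one over all genes. Narrowing the 8q24 window to its central 3 Mb left no listed peak, a ratio of 0 per exon in both lines. Widening it by 1 Mb on each side gave running-number ratios of 1.23 in HL60 and 1.42 in HL60/MX2. Counting only between listed peaks inside the window gave 1.42 in HL60, where it covers the stretch before MYC alone. For HL60 over HL60/MX2 it gave 0.913 (0.783 to 1.06), an interval that includes 1, but the lines then cover nearly separate stretches. The longest gap at the window, added after the data were seen, gave 1.28 and 1.58. Requiring overlap of 50% of both peaks gave shared shares of 4.47% and 4.36%. Any isoform gave 5′ shares of 30.4% and 30.2%, under an order of placing that favours the 5′ end. With exons of every biotype, 8q24 peaks per exon fell to 0.233 and 0.304 times the rest in HL60 and HL60/MX2, with upper bounds of 0.688 and 0.786, so that both intervals lie below 1. That exon set adds noncoding length where few peaks could be listed, so it does not show a depletion. No paired analysis was possible because each line had 1 library and no result came from a test. Depth is unknown, so a missing peak does not show that m7G was absent.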

Other observations

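On chromosome 8, 11 peaks in HL60 and 8 in HL60/MX2 covered no protein-coding exon on their strand. In HL60, peaks of this kind lay over exons of the long noncoding genes MSC-AS1 (score 395.58) and MIR2052HG (90.44). In HL60/MX2 they lay over FAM167A-AS1 (693.33 and 194.61), MAILR (636.33) and BAALC-AS2 (460.51). LINC02904 had one in both lists, with scores of 514.48 and 154.75 and an overlap of 20 bp from 144134643.

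Many scores were repeated exactly between unrelated peaks. In HL60, 129 of the 313 peaks of chromosome 8 (41.2%) had the score of another peak on the chromosome, and in HL60/MX2 122 of 321 (38.0%) did. The most frequent score was 79.91 in HL60, at 7 peaks, and 512.76 in HL60/MX2, at 5 peaks. The source of these repeats was not tested.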
